A study of Caenorhabditis elegans with 2 samples.

Results

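The cytochrome P450 genes of Caenorhabditis elegans were compared between 1 array of worms raised on Lysinibacillus sphaericus and 1 array of worms raised on Escherichia coli OP50. A gene belonged to the family if its symbol had the form cyp-, a number, a subfamily letter and a number, as in cyp-35A2. The array carried 124 probes for 77 such genes of 25 subfamilies, out of 19807 genes named on it, and 65 of the 77 were measured, that is, well above background with both diets. The RefSeq table holds 80 such symbols, and cyp-29A1, cyp-31A5 and cyp-33C6 had no probe here. The table lists 5 of the 77 as pseudogenes (cyp-13A9, cyp-25A5, cyp-31A1, cyp-34A3 and cyp-35D2).

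Both groups were whole N2 worms, the usual wild-type laboratory strain, collected as young adults. The L. sphaericus-fed worms received a soil isolate of this Gram-positive bacterium from hatching onwards at 20 °C, and the OP50-fed worms received the standard laboratory E. coli in the same way. Labels give neither the number of worms in a sample nor a replicate, so no test between the diets was possible and no p-value is given. A difference below describes these 2 RNA samples. In whole worms, fewer cells of a type and less RNA per cell cannot be told apart.

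Cytochromes P450 are heme enzymes that insert oxygen into their substrates, with electrons passed on by a reductase or by cytochrome b5. In worms, as in other animals, some clear plant, microbial and synthetic compounds, and others make or break fatty acid products and steroid hormones. The CYP14, CYP33, CYP34 and CYP35 families are related to vertebrate CYP2 enzymes, the CYP13, CYP25 and CYP43 families to the drug-clearing CYP3 enzymes, and the CYP29, CYP31, CYP32, CYP37 and CYP42 families to the fatty acid hydroxylases of CYP4. CYP44 resembles the mitochondrial P450 enzymes. Many of these genes lie in tandem runs of close copies, and probes of close copies may pick up each other's RNA, which was not tested.

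A level is the processed signal of a gene's probes as a percentage of the 75th percentile signal on its array. The lowest level that was well above background, here called the floor, was 0.765% on the L. sphaericus-fed array and 1.09% on the OP50-fed array. Levels of different genes come from different probes and are not set against each other. A difference is log2, L. sphaericus-fed minus OP50-fed, taken per probe and then as the median over a gene's measured probes. The SD over repeated spots of a probe was 0.145 (33 probes). The median SD over the probes of a P450 gene was 0.12 (22 genes with several probes). A difference of about this size is within the spread of spots and probes on these 2 arrays. The SD over probes reached 0.99 for cyp-25A1 and 1.89 for cyp-31A2. Of those 22 genes, 19 had all probes on 1 side of 0. How much separate cultures of worms, RNA preparations, labellings or hybridisations vary is not part of these spreads.

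Subfamilies of the P450 family went in opposite directions. The CYP34A and CYP33C genes were mostly lower on the L. sphaericus-fed array, and the CYP14A, CYP35A and CYP31A genes were mostly higher. The 2 measured CYP33D genes and the 1 measured CYP35B gene, near the floor with L. sphaericus, were also lower. Across the family, 12 of 65 measured genes (18.5%) were at least 2-fold higher, against 22.1% of all 15301 measured genes, and 26 (40%) were at least 2-fold lower, against 32.6%. The 2-fold shares lie near those of all genes, and the difference in share was not tested. At 4-fold, 2 genes (3.08%) were higher and 16 (24.6%) lower, beside 5.59% and 14.9% of all genes. The median difference was −0.51, or −0.31 relative to the median of all genes, −0.20. The SD over the P450 genes was 1.80, and over all genes 1.61.

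The counts depend on how the arrays are scaled, and the arrays differed in brightness: the 75th percentile signal was 3368 with L. sphaericus and 1440 with OP50. With the median of probes as the scaling, 18 of the 65 P450 genes were higher by 2-fold or more and 21 lower, against 37.9% and 20.8% of all genes. Scaling on 77 ribosomal protein genes gave 20 higher and 20 lower, with 42.7% and 17% of all genes. With no scaling 30 were higher and 15 lower, with 50.6% and 11.6%. Quantile normalization gave 16 higher and 24 lower, with 26% and 25.5%, and loess centring gave 16 higher and 23 lower, with 25.2% and 24.7%. These settings moved the median of all genes by 0.64, 0.86, 1.23, 0.29 and 0.30. The 75th percentile of detected probes moved it the other way, by −0.20, and gave 9 higher and 29 lower, with 17.2% and 37.2%. Among genes at least 2-fold apart under the 75th percentile scaling, 31.6% of P450 genes and 40.4% of all genes were higher. These shares were 46.2% and 64.6% with median scaling, 50% and 71.6% with ribosomal scaling, and 66.7% and 81.4% with no scaling. The family median relative to all genes stayed below 0 under all 12 alternatives tried, between −0.50 and −0.13. A scaling by 1 factor per array cannot move this relative median. It was therefore −0.31 with median, ribosomal and no scaling and with the 75th percentile of detected probes. The deposited series table, which holds the same intensities, also gave −0.31. The same holds for the subfamily ranges given below. Of the 38 genes at least 2-fold apart, 24 (9 higher, 15 lower) kept that call under all 6 scalings. Normexp background correction was not among these 6, and with it cyp-35A3 (0.96) and cyp-35A5 (0.36) were under 2-fold. Of the 65 measured genes, 21 turned sign under at least 1 of the 6 scalings, and 2 of these were among the 38.

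**Figure D1:**
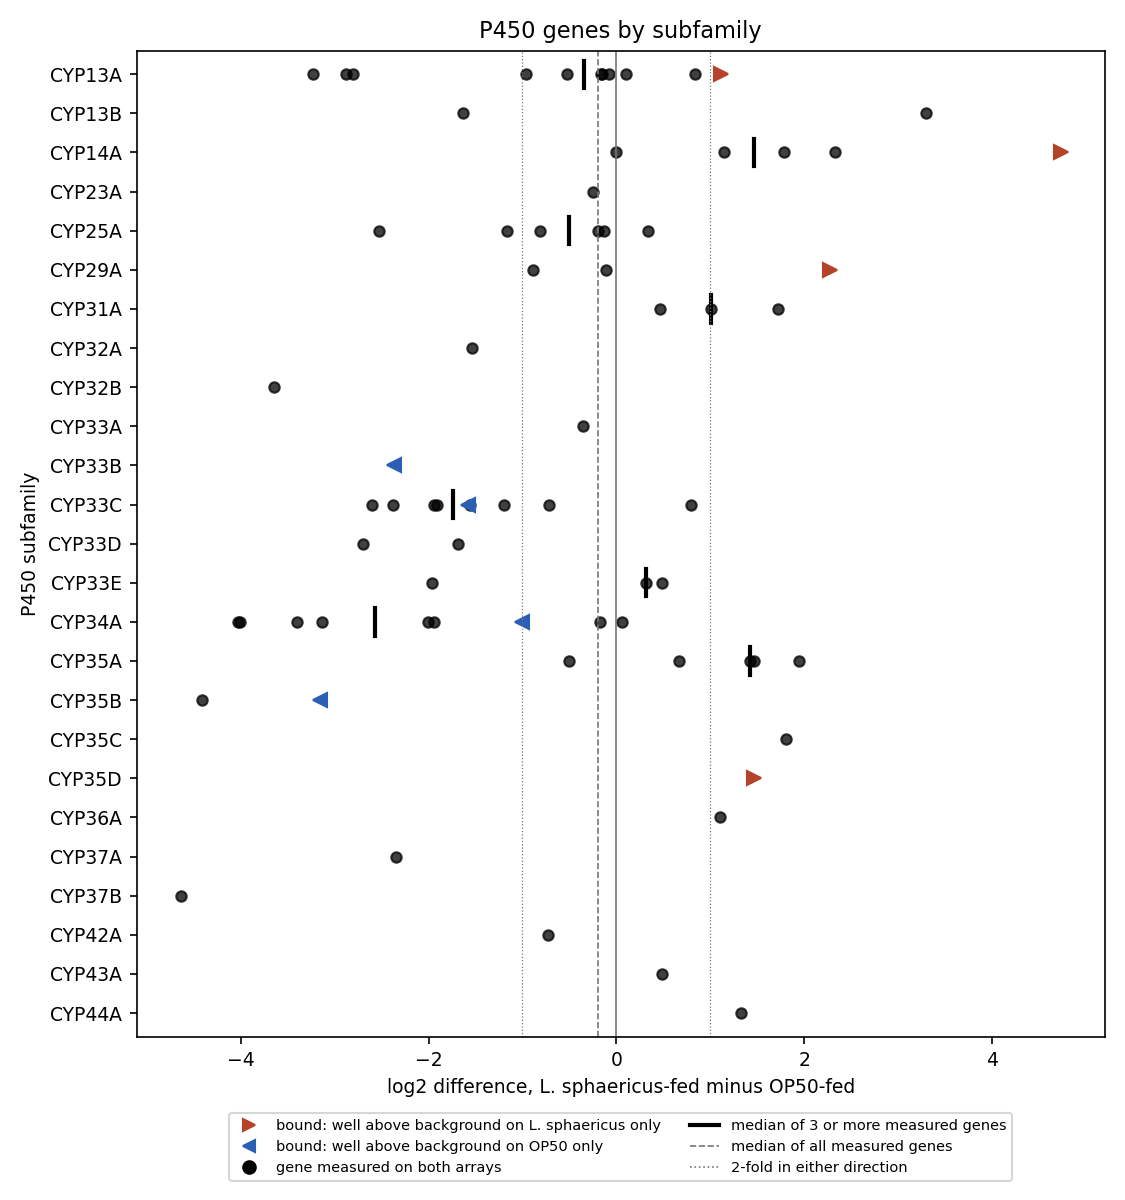
Log2 difference (x axis, L. sphaericus-fed minus OP50-fed) of the P450 genes in each of 25 subfamilies (y axis). Points are measured genes, thick bars the medians of 3 or more, and triangles lower bounds for genes well above background on 1 array; CYP34A and CYP33C lie mostly left of the 2-fold line and CYP14A and CYP35A mostly right of 0.

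The CYP34A subfamily had the lowest median of the 8 subfamilies with at least 3 measured genes. In L. sphaericus-fed worms 6 of its 8 measured genes were at least 2-fold lower, 5 of them at least 4-fold, and 0 were higher. Of all genes, 32.6% were at least 2-fold lower, 14.9% at least 4-fold lower and 22.1% at least 2-fold higher. The median of the 8 was −2.57, or −2.37 relative to all genes (−3.31 to −1.81 over the alternatives). The count of 6 lower held with median, ribosomal and quantile scaling, where 20.8%, 17% and 25.5% of all genes were lower. With no scaling the count was 4 lower and 2 higher, beside 11.6% and 50.6% of all genes. The 4-fold call of cyp-34A2 (−2.01) rested on probes at −2.41 and −1.61, the second near the floor with L. sphaericus (1.05%). It was lost with median (−1.37), quantile (−1.41) and loess (−1.26) settings, and kept with the 75th percentile of detected probes (−2.21).

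The gene cyp-34A9, known as a gene that the FOXO factor DAF-16 activates, had a level of 35.6% in L. sphaericus-fed worms, against 582% in OP50-fed worms. Its 6 probes agreed closely, with a difference of −4.03 ± 0.11 (SD over probes), or 16.4-fold lower. The neighbouring gene cyp-34A10 had a level of 52.4% on the L. sphaericus-fed array and 552% on the OP50-fed array, 10.5-fold lower on its single probe. The gene cyp-34A1 lies elsewhere on the same chromosome and had levels of 2.73% in L. sphaericus-fed worms and 43.9% in OP50-fed worms (−4.01 ± 0.39, 2 probes). Of all measured genes, 1.11% had a lower difference than cyp-34A9 and 1.14% a lower one than cyp-34A1. The differences of cyp-34A5, cyp-34A2 and cyp-34A6 were −3.13 ± 0.08 (3 probes), −2.01 ± 0.57 (2 probes) and −1.94 (1 probe). The other two measured members stood apart from these: cyp-34A8, with a level of 130% in L. sphaericus-fed worms and 125% in OP50-fed worms, and cyp-34A7, with 10.5% in L. sphaericus-fed worms and 11.8% in OP50-fed worms. Their differences of 0.06 and −0.17 turned sign under some scalings.

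The CYP35 genes split by subfamily. Members of CYP35A are known to be induced by foreign compounds and to affect fat storage. Of 5 measured CYP35A genes, 3 were higher by 2-fold or more and 0 were lower, beside 22.1% and 32.6% of all genes. The median was 1.42, or 1.61 relative to all genes (0.96 to 1.94 over the alternatives). With normexp background correction, 1 of the 5 was at least 2-fold higher. The gene cyp-35A4 had a level of 21.7% in L. sphaericus-fed worms, against 5.25% in OP50-fed worms (1.94 ± 0.06, 3 probes). For cyp-35A3 the level was 30.5% on the L. sphaericus-fed array and 11.4% on the OP50-fed array (1.42 ± 0.10, 2 probes), and for cyp-35A5 it was 8.27% on the L. sphaericus-fed array and 3.01% on the OP50-fed array (1.46, 1 probe). The gene cyp-35A2 was under 2-fold apart, with a level of 557% in L. sphaericus-fed worms and 351% in OP50-fed worms. The difference of cyp-35A1 was −0.51, with levels of 1.97% in L. sphaericus-fed worms and 2.8% in OP50-fed worms, and 5 of the 6 other scalings turned it above 0.

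The single CYP35C gene, cyp-35C1, also known to respond to foreign compounds, was 3.5-fold higher, at 324% on the L. sphaericus-fed array and 92.6% on the OP50-fed array. The CYP35D gene cyp-35D1, known for hydroxylating the anthelmintic thiabendazole, was well above background with L. sphaericus alone, at least 2.76-fold higher. CYP35B lay at the other end. The gene cyp-35B1, another known DAF-16-activated gene, had a level of 1.38% in L. sphaericus-fed worms and 29.3% in OP50-fed worms, 21.2-fold lower. With L. sphaericus its signal lay close to the floor, so the size of this fold is uncertain. The gene cyp-35B2 was well above background with OP50 alone, at least 8.97-fold lower. The genes cyp-35B3 and cyp-35D2 were well above background on neither array.

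In CYP33C, L. sphaericus-fed worms had 6 of 8 measured genes at least 2-fold lower and 0 higher, beside 32.6% and 22.1% of all genes. The median was −1.73, or −1.54 relative to all genes (−1.54 to −1.06 over the alternatives). The lower count was 4 with median, ribosomal and quantile scaling, each with 1 gene higher, beside 20.8%, 17% and 25.5% of all genes lower. With no scaling 2 were lower and 1 higher, beside 11.6% and 50.6% of all genes. The gene cyp-33C3 had a level of 16% in L. sphaericus-fed worms, against 96.8% in OP50-fed worms, and cyp-33C7 had 7.62% in L. sphaericus-fed worms and 39.6% in OP50-fed worms. They were 6.05-fold and 5.2-fold lower. The differences of cyp-33C2, cyp-33C11, cyp-33C5 and cyp-33C4 were −1.94, −1.91, −1.56 and −1.20 ± 0.28 (2 probes), that of cyp-33C4 turning above 0 with no scaling and that of cyp-33C11 resting on an L. sphaericus-fed level near the floor (0.938%). The gene furthest up was cyp-33C8, 1.73-fold higher (73.6% in L. sphaericus-fed and 42.5% in OP50-fed worms), and cyp-33C9 was at −0.72. The gene cyp-33C12 was well above background in OP50-fed worms only (at least 2.98-fold lower), and cyp-33C1 on neither array.

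The other CYP33 genes included 2 CYP33D genes, both lower: cyp-33D3 by 6.51-fold (levels 3.58% in L. sphaericus-fed and 23.3% in OP50-fed worms) and cyp-33D1 by 3.22-fold (2.65% in L. sphaericus-fed and 8.53% in OP50-fed worms). The single CYP33B gene, cyp-33B1, was well above background in OP50-fed worms only, on 3 probes, at least 5.16-fold lower. In CYP33E the genes differed. The gene cyp-33E2, whose enzyme is known to make signalling products of eicosapentaenoic acid in the pharynx, had levels of 76% in L. sphaericus-fed worms and 54.1% in OP50-fed worms, and its neighbour cyp-33E3 had 67.5% in L. sphaericus-fed worms and 53.9% in OP50-fed worms. Both were under 2-fold higher, while cyp-33E1 was 3.89-fold lower (19.5% in L. sphaericus-fed and 75.7% in OP50-fed worms). The difference of cyp-33A1 was −0.36 (30.2% in L. sphaericus-fed and 38.8% in OP50-fed worms), a sign that turned under 5 of 6 scalings.

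CYP14A had a median of 1.46, or 1.66 relative to all genes (1.41 to 2.26 over the alternatives), close to that of CYP35A. Which of these subfamilies was higher depended on the setting: quantile normalization gave 1.73 for CYP14A and 1.86 for CYP35A, and loess centring 1.72 and 1.94. Of 4 measured genes, each on 1 probe, 3 were higher by 2-fold or more and 0 lower, beside 22.1% and 32.6% of all genes. With normexp or the 75th percentile of detected probes the count was 2, without cyp-14A2. The gene cyp-14A3 had a level of 86.2% in L. sphaericus-fed worms, against 17.2% in OP50-fed worms (5.03-fold higher). The gene cyp-14A1 had 73% in L. sphaericus-fed worms and 21.2% in OP50-fed worms (3.44-fold higher), and cyp-14A2 had 64.2% in L. sphaericus-fed worms and 29.2% in OP50-fed worms (2.2-fold higher). A further member, cyp-14A4, was well above background in L. sphaericus-fed worms only and at least 26.5-fold higher, with a level of 28.8% there. The gene cyp-14A5 had the same level on both arrays, 105%, and lies apart from the run that holds the other CYP14A genes.

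**Figure D2:**
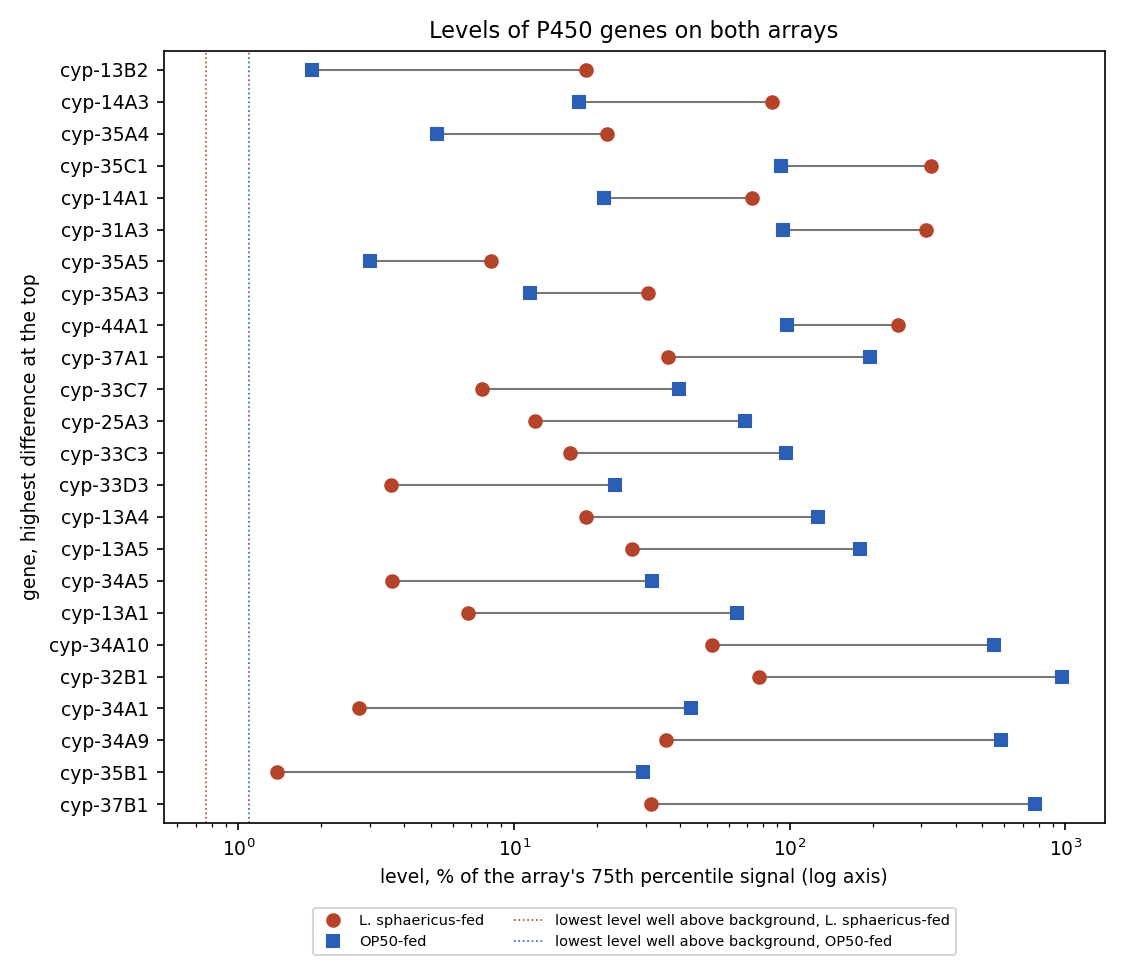
Levels (x axis, log scale, percentage of each array's 75th percentile signal) of the 24 P450 genes that kept a 2-fold call under all 6 scalings, with L. sphaericus-fed as circles and OP50-fed as squares. The 9 higher genes run from cyp-13B2 to cyp-44A1 and the 15 lower ones from cyp-37A1 to cyp-37B1. Of these, cyp-35B1 and cyp-13B2 each have 1 level near the dotted floor of its array, and cyp-35A3 and cyp-35A5 were under 2-fold with normexp.

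Among the CYP3-related genes, CYP13A had 3 of 10 measured members (30%) at least 2-fold lower and 0 higher, beside 32.6% and 22.1% of all genes. The median of −0.35 was close to that of all genes (−0.15 relative to it). The count was 1 higher and 3 lower with median, ribosomal, quantile or loess settings. Under these, 25.2% to 42.7% of all genes were higher and 17% to 25.5% lower. With no scaling 5 were higher and 3 lower, beside 50.6% and 11.6% of all genes. The CYP13A count was 0 higher and 4 lower with normexp or the 75th percentile of detected probes, the latter beside 17.2% and 37.2%. The median itself was above 0 with median (0.30), ribosomal (0.51) and no scaling (0.88). Under the 75th percentile scaling the 3 lower genes were all at least 4-fold lower. The gene cyp-13A1 had a level of 6.83% in L. sphaericus-fed worms and 64.2% in OP50-fed worms (9.39-fold lower). The adjacent genes cyp-13A4 and cyp-13A5 had differences of −2.80 ± 0.02 (2 probes) and −2.88 ± 0.08 (3 probes), with levels of 18.2% and 26.7% in L. sphaericus-fed worms and 127% and 180% in OP50-fed worms. The 7 others were under 2-fold apart, from cyp-13A3 at −0.96 ± 0.36 (2 probes) to cyp-13A7, known to be induced by rifampicin, at 0.84 (8.51% in L. sphaericus-fed and 4.75% in OP50-fed worms). Between them, cyp-13A10 was at −0.53, cyp-13A6 at −0.16, cyp-13A11 at −0.15 ± 0.07 and cyp-13A12, known from the behavioural response to reoxygenation, at 0.10 ± 0.11 (2 probes each for the last 2). The 3 probes of cyp-13A2 lay on both sides of 0, with a lowest of −0.41, a median of −0.08 and a highest of 0.31, and the gene had levels of 5.56% in L. sphaericus-fed worms and 6.73% in OP50-fed worms. The gene cyp-13A8 was well above background in L. sphaericus-fed worms only (at least 2.16-fold higher), and the pseudogene cyp-13A9 on neither array.

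The 2 CYP13B genes lay on opposite sides. The gene cyp-13B2 was 9.84-fold higher on 1 probe, with levels of 18.2% in L. sphaericus-fed worms and 1.85% in OP50-fed worms, the second near the floor. The difference of cyp-13B1 was −1.63 ± 0.11 (4 probes), with levels of 5.87% in L. sphaericus-fed and 17.1% in OP50-fed worms. In CYP25A, 2 of 6 genes (33.3%) were at least 2-fold lower, beside 32.6% of all genes. They were cyp-25A3 by 5.77-fold (11.9% in L. sphaericus-fed and 69% in OP50-fed worms) and cyp-25A2 by 2.26-fold (218% in L. sphaericus-fed and 492% in OP50-fed worms, −1.17 ± 0.13 over 2 probes). The sign of cyp-25A2 turned when the arrays were not scaled. The CYP25A count was 3 lower with the 75th percentile of detected probes, beside 37.2% of all genes. With no scaling it was 1 lower and 3 higher, beside 11.6% and 50.6% of all genes. The 2 probes of cyp-25A1 disagreed: the first had levels of 62.7% in L. sphaericus-fed worms and 30.5% in OP50-fed worms (1.04), and the second 222% in L. sphaericus-fed worms and 285% in OP50-fed worms (−0.36). The differences of cyp-25A4, cyp-25A5 and cyp-25A6 were −0.20 ± 0.06 (2 probes), −0.13 and −0.81, the last near the floor on both arrays (0.975% in L. sphaericus-fed and 1.71% in OP50-fed worms). All of these turned sign under some scalings. The gene cyp-43A1 was at 0.48 ± 0.07 (3 probes), with levels of 4.34% in L. sphaericus-fed and 3.37% in OP50-fed worms.

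The CYP4-related genes held both the lowest difference of the family and the eggshell P450 genes. The gene cyp-37B1 had a level of 31.3% in L. sphaericus-fed worms, against 778% in OP50-fed worms, 24.9-fold lower, and 0.582% of all measured genes had a lower difference. The gene cyp-32B1 had 77.2% in L. sphaericus-fed worms and 971% in OP50-fed worms (12.6-fold lower), each of these on 1 probe. For cyp-37A1, 4 probes gave −2.35 ± 0.35, with levels of 36.2% in L. sphaericus-fed worms and 195% in OP50-fed worms. The gene cyp-32A1 was 2.91-fold lower (21.6% in L. sphaericus-fed and 62.8% in OP50-fed worms), and cyp-42A1 was at −0.73 ± 0.14 (3 probes), with levels of 18.3% in L. sphaericus-fed and 28% in OP50-fed worms. In CYP29A, cyp-29A2 was at −0.89 (106% in L. sphaericus-fed and 196% in OP50-fed worms), and cyp-29A3, another producer of eicosapentaenoic acid derivatives, was at −0.11 (25.9% in L. sphaericus-fed and 28% in OP50-fed worms). The gene cyp-29A4 was well above background in L. sphaericus-fed worms only, at least 4.83-fold higher.

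In CYP31A, 2 of 3 genes were higher by 2-fold or more and 0 lower, beside 22.1% and 32.6% of all genes. The higher count was 1 with normexp, the brightest probe of each gene, bright probes only or the 75th percentile of detected probes. The genes cyp-31A2 and cyp-31A3 are near-identical copies known to act with the reductase EMB-8 in building the lipid layer of the eggshell. The gene cyp-31A3 had a level of 313% in L. sphaericus-fed worms, against 94.6% in OP50-fed worms (3.3-fold higher, 1 probe). The 2 probes of cyp-31A2 disagreed. The first had levels of 20.9% in L. sphaericus-fed worms and 4.09% in OP50-fed worms (2.35), and the second 84.1% in L. sphaericus-fed worms and 105% in OP50-fed worms (−0.33), so its median of 1.01 depends on which probe is used. The pseudogene cyp-31A1 was at 0.46 (13.7% in L. sphaericus-fed and 9.98% in OP50-fed worms). Of 10 germline and oocyte markers, 9 were also at least 2-fold higher in L. sphaericus-fed worms and 0 lower, and their part in the CYP31A difference was not tested. Of the remaining single-gene subfamilies, the mitochondrial-type gene cyp-44A1 was higher, at 246% in L. sphaericus-fed worms and 97.9% in OP50-fed worms (1.33 ± 0.39, 3 probes). The gene cyp-36A1, known to act downstream of the hypoxia factor HIF-1, was 2.15-fold higher (29.3% in L. sphaericus-fed and 13.7% in OP50-fed worms), and cyp-23A1 was at −0.25 (10.6% in L. sphaericus-fed and 12.6% in OP50-fed worms).

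The genes well above background on 1 array only were 4 of 77 for the L. sphaericus-fed array (cyp-13A8, cyp-14A4, cyp-29A4 and cyp-35D1), beside 4.08% of all 19807 named genes. They were also 4 of 77 for the OP50-fed array (cyp-33B1, cyp-33C12, cyp-34A3 and cyp-35B2), beside 4.21%. The level of cyp-14A4 was 28.8% in L. sphaericus-fed worms and 1.01% in OP50-fed worms, that of cyp-29A4 5.26% in L. sphaericus-fed worms and 0.242% in OP50-fed worms, and those of cyp-35D1 (3.01% in L. sphaericus-fed and 0.485% in OP50-fed worms) and cyp-13A8 (2.36% in L. sphaericus-fed and 0.319% in OP50-fed worms) were likewise above the floor with L. sphaericus only. The genes seen with OP50 had levels under the floor in L. sphaericus-fed worms: cyp-35B2 (0.23% in L. sphaericus-fed and 6.86% in OP50-fed worms), cyp-33B1 (0.729% in L. sphaericus-fed and 3.95% in OP50-fed worms), cyp-33C12 (0.566% in L. sphaericus-fed and 2.28% in OP50-fed worms) and cyp-34A3 (0.154% in L. sphaericus-fed and 1.54% in OP50-fed worms, at least 2.02-fold lower). These folds are lower bounds, taken against the dim probe's own level or the floor of its array, whichever was higher.

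Position along the chromosome was not used in choosing the genes, and immediate neighbours could lie close together or far apart. On chromosome V, cyp-35A5 is followed by the 3 CYP35B genes and then, after 2 other coding genes, by cyp-34A5 to cyp-34A10. The gene cyp-35A5 (1.46) and its immediate neighbour cyp-35B1 (−4.41) were 5.86 log2 units apart, the widest gap of 20 pairs of measured immediate neighbours. Within the same run, cyp-34A8 (0.06) and cyp-34A9 (−4.03) were 4.09 apart, while cyp-34A9 and cyp-34A10 were 0.63 apart. The L. sphaericus-fed level of cyp-35B1 was near the floor (1.38%), so the size of the widest gap is uncertain. With normexp, cyp-35A5 (0.36) and cyp-35B1 (−3.28) lay closer together than cyp-34A8 (0.05) and cyp-34A9 (−3.91). In the CYP13A run on chromosome II, cyp-13A4 and cyp-13A5 were 0.08 apart, and cyp-13A5 and cyp-13A6 were 2.72 apart. All 4 measured genes of the CYP33C run from cyp-33C4 to cyp-33C7 were lower, except that cyp-33C4 turned above 0 with no scaling, and all 3 measured genes of the CYP14A run on the X chromosome were higher.

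**Figure D3:**
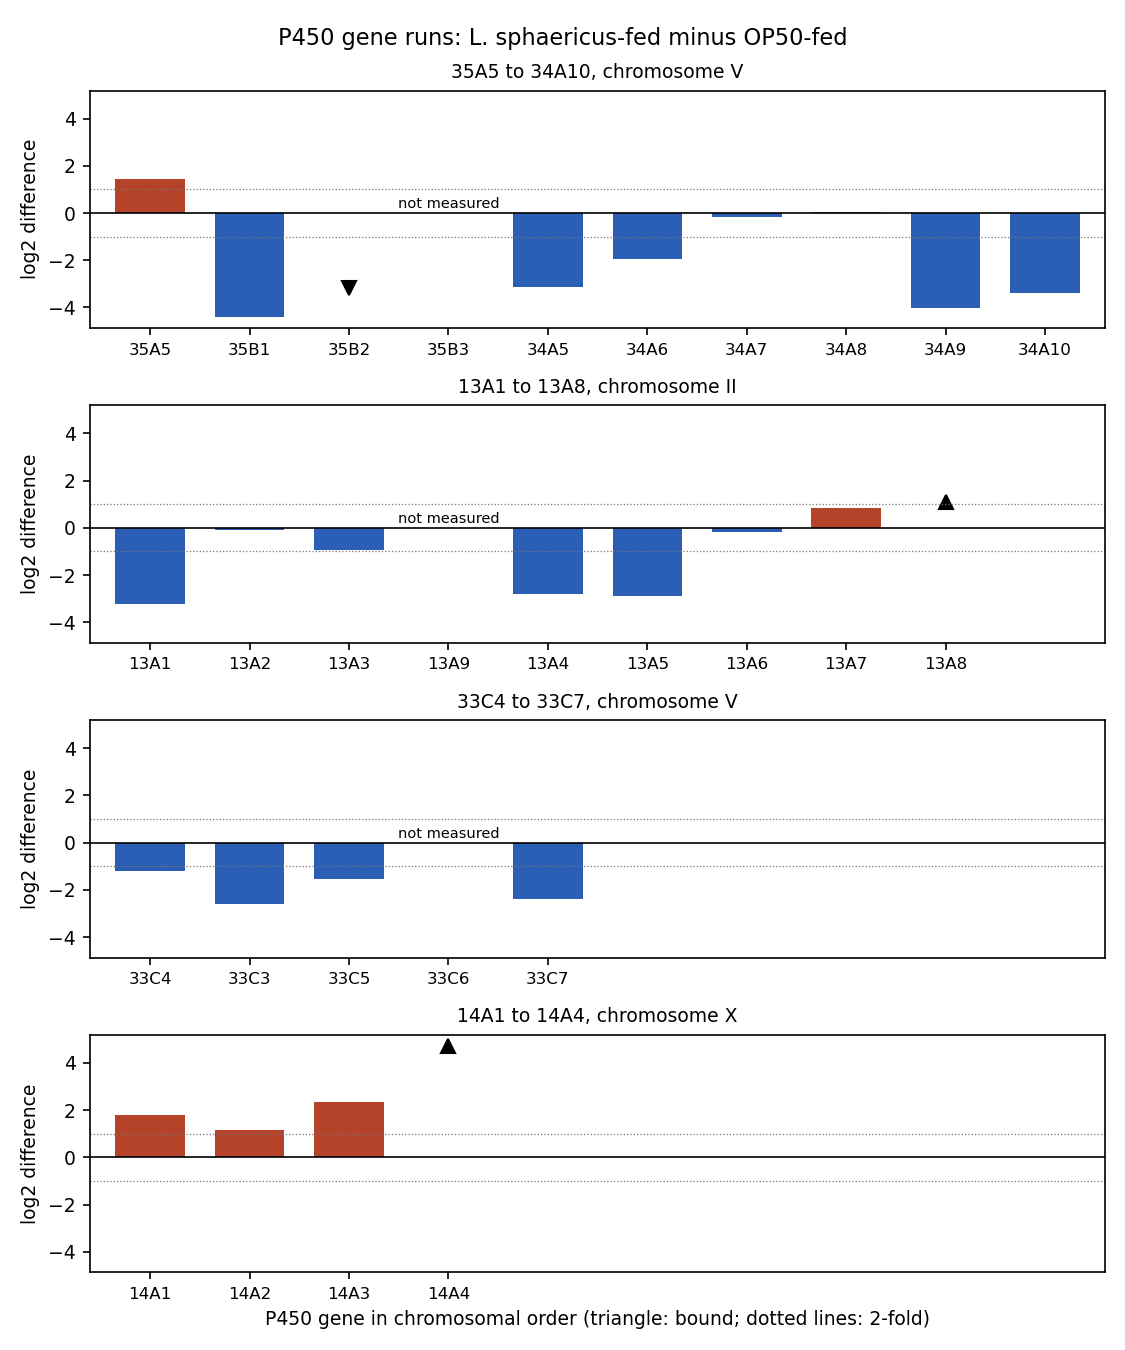
Log2 difference (y axis, L. sphaericus-fed minus OP50-fed) of P450 genes in their order along the chromosome (x axis) for 4 runs, with bars for measured genes and triangles for bounds. The CYP14A bars all point up and the CYP33C bars down, while the longest run holds both cyp-35A5 at 1.46 and cyp-35B1 at −4.41. The L. sphaericus-fed level of cyp-35B1 is near the floor, and cyp-35A5 was under 2-fold with normexp.

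The genes that serve the P450 enzymes did not follow 1 direction. Counts of this and the following lists are under the 75th percentile scaling, where the 2-fold calls over all genes were 22.1% higher and 32.6% lower. Counts given for other scalings are read beside 37.9% and 20.8% (median), 42.7% and 17% (ribosomal) and 50.6% and 11.6% (no scaling). Medians relative to all genes do not move under a scaling by 1 factor per array, while each single difference moves by that scaling's shift of all genes. The reductase gene emb-8, which passes electrons to microsomal P450 enzymes, was under 2-fold apart (0.59 ± 0.20, 7 probes), with levels of 53.3% in L. sphaericus-fed worms and 34% in OP50-fed worms, and it was past 2-fold higher with median, ribosomal or no scaling. Of the cytochrome b5 genes, cytb-5.1 was at 0.03 and cytb-5.2 at −2.25 (1460% in L. sphaericus-fed worms and 6970% in OP50-fed worms). The P450 gene daf-9, which makes the steroid hormone dafachronic acid and lies outside the cyp symbols, was 7.51-fold lower (4.2% in L. sphaericus-fed and 31.5% in OP50-fed worms). Of 5 measured genes of heme handling, which worms need because they take heme from their food, 1 was at least 2-fold higher and 0 lower, a count of 3 higher with median scaling and 0 with normexp. This was the heme importer gene hrg-4, with levels of 18.1% in L. sphaericus-fed worms and 6.88% in OP50-fed worms.

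Of 18 transcription factor and cofactor genes tied to P450 or detoxification genes, 5 (27.8%) were lower by 2-fold or more and 0 higher, beside 32.6% and 22.1% of all genes. Their median was −0.42 relative to all genes. The 5 were the steroid receptor gene daf-12 at 5.44-fold lower, the aryl hydrocarbon receptor gene ahr-1 at 3.84-fold, hif-1 at 2.91-fold, nhr-80 at 2.27-fold and the mediator gene mdt-15 at 2.09-fold. With median scaling only daf-12 and ahr-1 of these kept the call, and nhr-23 and nhr-86 were at least 2-fold higher. With no scaling daf-12 alone was lower and 4 genes were higher. Of 9 measured genes of polyunsaturated fatty acid supply and epoxide hydrolysis, which make and remove substrates and products of some P450 enzymes, 4 (44.4%) were at least 2-fold lower and 1 (11.1%) higher. The desaturase gene fat-3 was 7.18-fold lower, and the desaturase genes fat-4, fat-1 and fat-2 were 2.6-fold, 2.47-fold and 2.36-fold lower. With median, ribosomal or no scaling fat-3 alone was at least 2-fold lower. Among the elongase genes, elo-2 was 7.72-fold higher. The gene fat-7, also a desaturase gene, was detected in L. sphaericus-fed worms only (at least 521-fold higher).

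The counts of the other detoxification families are read beside the 22.1% higher and 32.6% lower of all genes. Of 44 measured glutathione S-transferase genes, 4 (9.09%) were higher by 2-fold or more and 21 (47.7%) lower, and the median relative to all genes was −0.46. At 4-fold, gst-26 and gst-38 were higher, and gst-3, gst-15, gst-25, gst-29, gst-31, gst-33, gst-34, gst-35, gst-41 and gsto-2 lower. Of 64 UDP-glucuronosyltransferase genes, 7 (10.9%) were higher and 34 (53.1%) lower, and the median relative to all genes was −0.88. At 4-fold, ugt-19, ugt-22 and ugt-62 were higher, and ugt-1, ugt-8, ugt-15, ugt-18, ugt-23, ugt-27, ugt-31, ugt-34, ugt-36, ugt-40, ugt-51, ugt-54, ugt-55 and ugt-66 lower. The shares of the P450 family were 18.5% higher and 40% lower, and the difference between the families, or from all genes, was not tested. Median scaling gave 9 higher and 13 lower glutathione S-transferase genes and 14 higher and 20 lower UDP-glucuronosyltransferase genes, beside 37.9% and 20.8% of all genes. With no scaling more were higher than lower in both families, 12 against 10 and 21 against 11, beside 50.6% and 11.6% of all genes. Of 5 flavin monooxygenase genes, 3 were lower by 2-fold or more and 0 higher, fmo-2 by 184-fold, fmo-1 by 9.64-fold and fmo-4 by 3.46-fold, the last under 2-fold with ribosomal or no scaling.

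**Figure D4:**
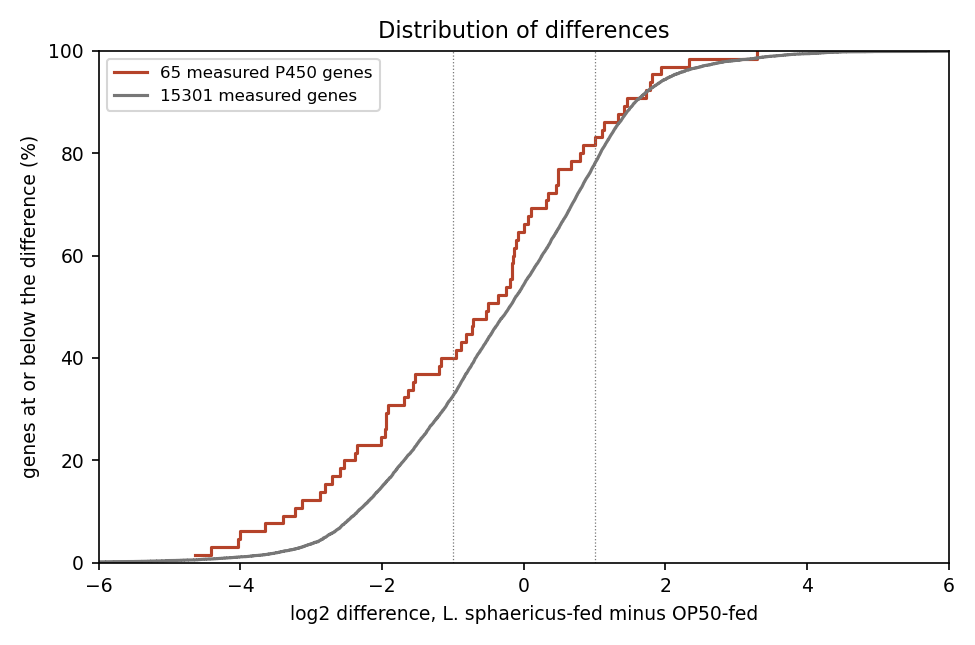
Cumulative share of genes (y axis, percent) at or below each log2 difference (x axis, L. sphaericus-fed minus OP50-fed) for the 65 measured P450 genes and all 15301 measured genes. The P450 curve lies above that of all genes below −1, where it reaches 40% against 32.6%, and close to it above 1.

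Markers of tissues also differed between the arrays. Of 10 germline and oocyte markers, 9 were at least 2-fold higher and 0 lower, and their summed level was 16800% in L. sphaericus-fed worms and 4530% in OP50-fed worms. Those at least 4-fold higher were puf-8, oma-1, oma-2, cbd-1 and puf-5, which act in germ cells and oocytes. All 7 measured sperm markers were at least 2-fold lower (218% summed in L. sphaericus-fed and 783% in OP50-fed worms), 4 of them at least 4-fold (spe-4, spe-10, fer-1 and gsp-3). Of 10 intestine markers, 2 were at least 2-fold higher and 4 lower (15100% summed in L. sphaericus-fed and 30300% in OP50-fed worms), a share near that of all genes. The sum was carried by asp-1 and cpr-1, without which it was 5320% in L. sphaericus-fed and 4800% in OP50-fed worms. The median relative to all genes was −0.18. Of 8 epidermis markers, 4 were higher and 0 lower (5370% summed in L. sphaericus-fed and 3070% in OP50-fed worms). Without col-19 and col-93 the epidermis sum was 595% in L. sphaericus-fed and 493% in OP50-fed worms. Of 8 neuron markers, 1 was higher and 3 lower (2250% summed in L. sphaericus-fed and 3100% in OP50-fed worms), the lowest being egl-3. Of 6 body wall muscle markers, 0 were 2-fold apart (4240% summed in L. sphaericus-fed and 4950% in OP50-fed worms), and of 5 pharynx markers, 3 were lower (509% summed in L. sphaericus-fed and 1380% in OP50-fed worms). All markers counted here were well above background on both arrays, and peel-1, a sperm gene, was not analysed here. With no scaling, where 50.6% of all genes were higher and 11.6% lower, 10 germline and oocyte markers were higher. Under the same setting 2 sperm markers and 0 pharynx markers were lower. Of the 10 intestine markers 5 were then higher, near the share of all genes, and 0 lower. The part of the markers in the P450 results was not tested.

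**Figure D5:**
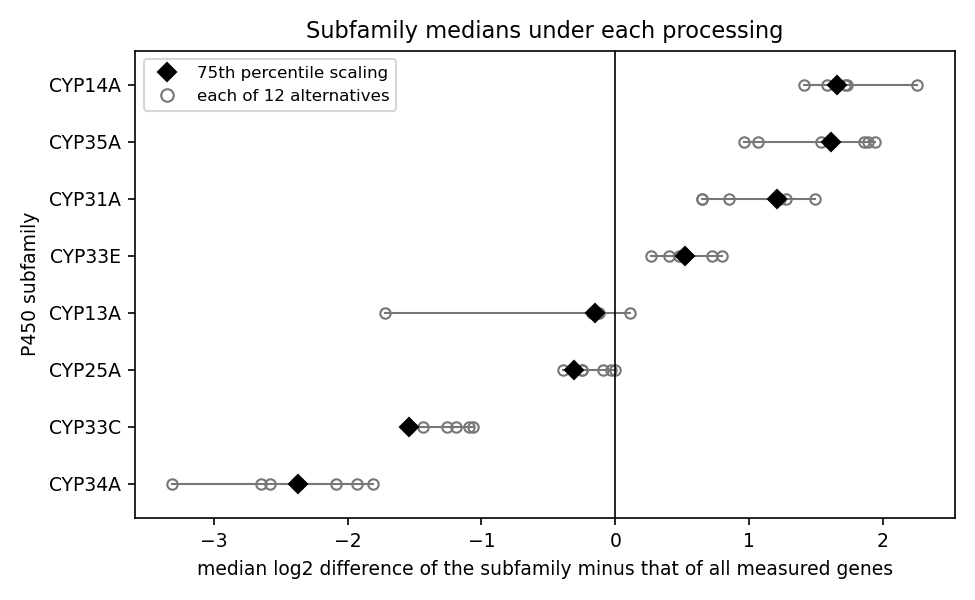
Median log2 difference of 8 P450 subfamilies (y axis) minus that of all measured genes (x axis) under the 75th percentile scaling (diamonds) and under each of 12 alternatives (open circles). CYP14A, CYP35A, CYP31A and CYP33E stay right of 0, CYP33C and CYP34A stay left of 0, and CYP13A lies on both sides.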

How the data were processed

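Total RNA of whole worms was labelled with Cy3 and hybridised to 1-colour Agilent arrays, 1 array per diet, per the labels' protocols. The authors deposited the intensity of each spot on a linear scale, background-subtracted by Agilent Feature Extraction 11.0.1.1 per the file headers, with both arrays on 1 slide and in 1 scan. Other deposited columns are flags of the scanner software. Median signals were 366.9 on the L. sphaericus-fed array and 244.8 on the OP50-fed array. The deposited series table holds the same intensity per probe, unscaled and uncentred (within 0.01 log2 units for 43594 of 43603 probes on the L. sphaericus-fed array and 43596 on the OP50-fed array).

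Control spots and 36 outlier spots were left out, and no spot was saturated. Processed signals were put on the log2 scale, repeated spots averaged, and each array's 75th percentile over 43579 probes subtracted. Names came from the RefSeq gene table of WBcel235 through systematic names without isoform and version suffixes. This named 34298 probes (19807 genes) and left 9281 unnamed. The array design cites another build, so no coordinates are given, and no probe, protein or promoter sequence was analysed here. A gene was measured if the scanner software marked one of its probes as well above background on each array (15301 genes), and called at a fold of 2. The family, its subfamilies and the lists of related and marker genes were chosen with earlier results of these data known. All 77 genes are accounted for, and signals on both arrays are given for the extremes of the family and of each subfamily with at least 3 measured genes, for genes on 1 array only and for those with disagreeing probes. Genes of other lists are named at 4-fold or more, or, chosen after their values were seen, to illustrate a count. In the alternatives, normexp used the median spot signal, since the files analysed hold no mean signal.

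With 1 array per diet no test was run, and precision is limited by the number of arrays. The alternatives were 6 other scalings or normalizations, normexp (offset 50), filters on dim probes, other summaries of a gene and the series table. The steps were tested on simulated data. R 4.3.3 with limma 3.58.1 and Python 3.11.15 with pandas 2.3.3 were used.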

Additional observations from a re-analysis of the deposited data

How the results depend on the processing

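No paired analysis was possible because each diet has 1 array and no replicate, so no result has a replicate check. Counts of P450 genes at least 2-fold apart were 30 higher and 15 lower with no scaling, 20 higher with ribosomal protein scaling and 7 higher with normexp. The family median relative to all genes was −0.50 with bright probes only (those not below the median signal), where 46 genes were measured. The cause of the moves below was not tested, except that fewer genes enter with the bright probes and more with no filter on dim probes. Subfamily medians relative to all genes were as follows. With bright probes only, CYP13A was at −1.72, CYP14A at 1.41, CYP31A at 0.65, CYP33E at 0.27, CYP34A at −3.31 and CYP35A at 0.96. With no filter on dim probes, CYP13A turned sign to 0.11, and CYP14A was at 2.26, CYP25A at −0.03, CYP31A at 1.49, CYP33C at −1.26, CYP33E at 0.80, CYP34A at −2.65 and CYP35A at 1.89. With normexp, CYP31A was at 0.85, CYP33C at −1.09, CYP33E at 0.72, CYP34A at −1.81 and CYP35A at 1.07. Quantile normalization gave −0.09 for CYP25A, −1.19 for CYP33C, −2.09 for CYP34A and 1.86 for CYP35A. Loess centring gave −0.00027 for CYP25A, −1.06 for CYP33C, −1.93 for CYP34A and 1.94 for CYP35A. With the brightest probe of each gene, CYP31A was at 0.65 and CYP34A at −2.58. Of the single genes at least 2-fold apart, cyp-25A2 (0.05) and cyp-33C4 (0.03) turned sign with no scaling, and cyp-31A2 (−0.33) with bright probes only and with the brightest probe. The other 35 of 38 kept their direction under the alternatives that measured them. Scanner signal limits cyp-13B2, cyp-25A6, cyp-33C11 and cyp-35B1, each with a gene level within 2-fold of the floor on at least 1 array. Single probes of other genes, such as 1 of cyp-34A2, also lay near it.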
